A study of Mus musculus with 18 samples.

Results

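The class II odorant receptor genes of mouse chromosome 9 were followed through RNA sequencing of nasal mucosa. They were taken from the count table as protein-coding genes whose name is Olfr with a number and whose chromosome is 9. Olfr839-ps1, Olfr896-ps1 and Olfr911-ps1 are among them, named as pseudogenes but annotated there as protein-coding. The rule gave 132 genes among 1135 protein-coding Olfr genes and 54532 genes in all, and it used no measured value. Only chromosome 2, with 294 such genes, and chromosome 7, with 244, hold more. All 132 carry an MOR family number in RefSeq, from MOR104 to MOR239 over 29 families. This range belongs to class II, the receptors typical of land vertebrates, while class I receptors have the lowest MOR numbers.

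There were 18 libraries of poly(A) RNA from nasal mucosa, 6 in each of 3 groups. Mice of the C10 group were taken to have received papain as in CRS, since the protocol describes dosing of CRS mice, and in addition the compound C10: 10 µL of a 10 mg/mL solution on each side, 1 dose a day over 10 days beginning with papain. The target of C10 given in the series title is APE1, which repairs DNA and acts in redox control. Mice of the CRS group, a model of chronic rhinosinusitis, received intranasal papain, a protease of plants, with 20 µg in 20 µL per dose over days 0 to 2 and again over days 7 to 11. What the control group (CON) received is not stated in the labels, nor are the vehicle, strain, age and sex. Whether libraries come from different animals is not stated either, and p-values then reflect only how far these libraries differ, which may be technical. Total counts lay between 15883573 and 18128186 in C10, 16531779 and 17523368 in CRS, and 16510920 and 18433866 in CON.

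Odorant receptors are G-protein-coupled receptors on the cilia of olfactory sensory neurons. Each mature neuron expresses 1 allele of 1 receptor gene, so in bulk tissue the RNA of a receptor follows the number of neurons that chose it and the RNA per neuron, which cannot be told apart here. Choice takes place as neurons mature, from clusters held silent in heterochromatin. Homeodomain proteins such as Lhx2 and Emx2 and Ebf proteins bind receptor promoters and enhancers. Bound receptors signal through the G protein Gnal, the adenylyl cyclase Adcy3 and cyclic-nucleotide-gated channels. The 10 marker genes of mature olfactory neurons, among them Omp, were present in every library, with a summed level of 4739 to 8266 CPM in C10, 3709 to 9531 in CRS and 3187 to 7819 in CON (CPM, counts scaled to the library size with TMM factors).

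The 132 genes lay in 2 runs separated by more than 1 Mb. The proximal run held 37 genes from Olfr24 to Olfr18 (GRCm38/mm10, chr9:18751507-20336094, 1.58 Mb), and the distal run held 95 genes from Olfr160 to Olfr986 (chr9:37708964-40190134, 2.48 Mb). Olfr160 is M72, a receptor known from studies of axon guidance in mice. The distal run was the more highly expressed per length: its median receptor had 0.518 FPKM (a level scaled by depth and gene length, as deposited; mean of 18 libraries) and 35 of its 95 genes exceeded 1 FPKM. The median in the proximal run was 0.118 FPKM, and 3 of its 37 genes exceeded 1 FPKM. Of the 104864 counts of all members, 88887 came from the distal and 15977 from the proximal run.

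**Figure D1:**
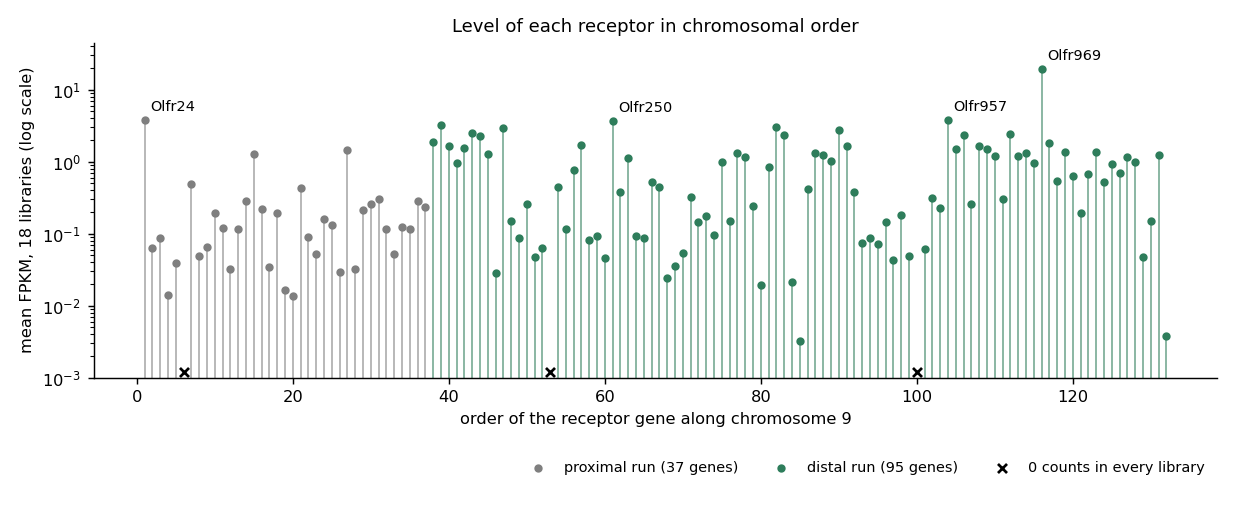
Mean FPKM over 18 libraries (log scale) of each receptor, in order along chromosome 9; grey points are the proximal run, green points the distal run, and crosses the 3 receptors without a count. Olfr969 stands at 19.2 FPKM, and 38 receptors exceed 1 FPKM.

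A single receptor led the level. Olfr969 (ENSMUSG00000094254, chr9:39790945-39796635, + strand, family MOR171) had a mean of 19.2 FPKM, 5.05 times that of the second receptor, and was first among the 132 in all 18 libraries by FPKM. Its FPKM was 10.9, 21.97 and 31.7 (lowest, median and highest) in C10, 8.96, 20.5 and 34.5 in CRS, and 6.61, 15.7 and 20.7 in CON. The groups overlapped widely for Olfr969, and its log2 fold changes were -0.01 ± 0.30 (SE) for C10 against CRS, 0.51 ± 0.31 for C10 against CON and 0.52 ± 0.31 for CRS against CON (edgeR adjusted p = 0.995, 0.487 and 0.457).

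The next 11 receptors by mean FPKM were close together. They were Olfr957 at 3.80, Olfr24 at 3.74, Olfr250 at 3.65, Olfr874 at 3.21, Olfr923 at 3.02, Olfr884 at 2.90, Olfr146 at 2.72, Olfr145 at 2.50, Olfr965 at 2.45, Olfr959 at 2.32 and Olfr924 at 2.32 FPKM. The ranges of neighbours in this order overlapped in each group. Olfr24, the first gene of the proximal run (chr9:18751507-18763996, - strand), was the only one of the 12 from that run. Together the 12 held 47.0% of the summed mean FPKM of the members, and 14 genes were enough to reach 50%. At the other end, 42 receptors had a mean under 0.1 FPKM.

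The order among the receptors was similar from library to library. Spearman's rho of the counts of the 132 genes between 2 libraries ran from 0.84 to 0.96 with a median of 0.92 over 153 pairs of libraries; receptors share libraries and differ in length, so this is a description. A count was found in all 18 libraries for 84 receptors and in at least 1 library for 129. Olfr834, Olfr891 and Olfr952 had 0 counts in every library, where 3 counts, the floor used, equal 0.163 to 0.193 CPM.

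Some receptors, with few or with many counts, have a near copy on the same chromosome. Identity was taken over the longest reading frame of the GENCODE release M21 transcripts, among 1192 Olfr genes annotated as protein-coding or polymorphic pseudogenes. Unprocessed pseudogenes were not compared. For 114 of the 132 members this frame agreed in length with the annotated coding sequence. The closest other gene of this set had a median identity of 86.1%, from 61.55% to 98.1%. It lay on chromosome 9 for 127 of the 132 and was another member for 124. At 95% identity or more there were 14 members. Among them were receptors with many counts, such as Olfr874 with 2631, while Olfr891, with 0 counts, had 74.24% identity to its closest gene. The closest pair was Olfr952 (chr9:39426093-39427148, - strand, 0 counts) and Olfr955 (chr9:39465801-39471944, - strand, 161 counts), with 18 differences in 945 bases and an identical run of 272 bases. Olfr926 (chr9:38877126-38878176, + strand, 1 count) and Olfr924 (chr9:38844449-38851495, + strand, 2474 counts) differ at 36 of 927 bases. How reads that match both copies were counted is not given in the sources used here, so these counts are uncertain where the copies are identical. For each pair the 120 bases with most differences are given from the mRNA strand, with differing bases in capitals. They show where reads could separate the copies best. Each stretch holds 9 differences, and no other stretch of this length holds more. They are bases 22 to 141 of the frame for the first pair and 200 to 319 for the second.
Olfr952: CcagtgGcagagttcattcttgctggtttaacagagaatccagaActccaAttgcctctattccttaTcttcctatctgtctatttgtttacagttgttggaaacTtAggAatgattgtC
Olfr955: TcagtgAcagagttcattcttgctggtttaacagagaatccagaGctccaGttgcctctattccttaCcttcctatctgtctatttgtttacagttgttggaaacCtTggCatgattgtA
Olfr926: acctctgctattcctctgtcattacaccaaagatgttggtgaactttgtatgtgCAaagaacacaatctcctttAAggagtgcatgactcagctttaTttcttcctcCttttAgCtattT
Olfr924: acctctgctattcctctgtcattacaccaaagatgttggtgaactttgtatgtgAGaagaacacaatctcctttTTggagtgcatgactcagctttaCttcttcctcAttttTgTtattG

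The largest family was MOR171, with 34 members and 30900 of the member counts, which includes Olfr969, Olfr957, Olfr146 and Olfr965. Families MOR161 (6 members, 12693 counts) and MOR224 (10 members, 12472 counts) followed by counts. MOR171 gave 28.2% ± 1.49 of the member counts in C10, 30.9% ± 2.18 in CRS and 29.1% ± 1.47 in CON (SD, n = 6 each). MOR224 gave 12.9% ± 0.934, 11.1% ± 0.967 and 11.2% ± 0.976 in C10, CRS and CON, and its lowest C10 library, at 11.6%, lay below the highest CRS library, at 12.6%. MOR161 gave 11.97% ± 1.33, 10.3% ± 1.10 and 13.9% ± 1.63 in the same order. All these ranges overlapped between groups.

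Promoter windows were read first where the RefSeq start lies within 50 bases of the deposited start, which held for 23 of the 109 members with a RefSeq window (GRCm38.p6). For the other 86 the RefSeq start was further off, and the median offset over all 109 was 946 bases. Agreement of the 2 starts does not show that a window is a promoter. Several of the 23, such as Olfr885 and Olfr917, have models of 1 exon and 930 bases, the reading frame alone, so their windows lie just before the frame. In the 250 bases before the start, the homeodomain motifs TAATTA or TAATGA were found on either strand in 52.2% of the 23 windows, in 43.0% of 107 such windows of other Olfr genes and in 12.8% of 27025 windows of all genes. The Ebf motif CCCNNGGG was found in 8.7%, 10.3% and 11.7% of the same sets. In the 86 member windows further off, the homeodomain motifs were found in 41.9% and the Ebf motif in 0.0%. Over all 822 windows of other Olfr genes the shares were 37.0% and 2.8%. Homeodomain matches were thus frequent away from the deposited start too, and no test was made of these shares. Motifs do not overlap one another in the windows shown. The windows of Olfr147 (chr9:38401461-38401710, + strand), the most highly expressed of the 23, Olfr868 (chr9:20098376-20098625, + strand) and Olfr910 (chr9:38537632-38537881, + strand) are given because they show a window with both motifs, with a homeodomain motif alone and with none; capitals mark the matches.
Olfr147: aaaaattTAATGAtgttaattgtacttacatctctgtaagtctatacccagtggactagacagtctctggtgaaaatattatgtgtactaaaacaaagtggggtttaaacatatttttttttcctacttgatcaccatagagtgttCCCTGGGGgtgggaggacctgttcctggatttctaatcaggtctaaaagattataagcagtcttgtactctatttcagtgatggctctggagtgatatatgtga
Olfr868: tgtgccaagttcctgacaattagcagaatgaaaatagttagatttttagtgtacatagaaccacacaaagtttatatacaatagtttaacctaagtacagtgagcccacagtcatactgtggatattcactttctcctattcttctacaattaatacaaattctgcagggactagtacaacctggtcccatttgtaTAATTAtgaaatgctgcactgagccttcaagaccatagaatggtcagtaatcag
Olfr910: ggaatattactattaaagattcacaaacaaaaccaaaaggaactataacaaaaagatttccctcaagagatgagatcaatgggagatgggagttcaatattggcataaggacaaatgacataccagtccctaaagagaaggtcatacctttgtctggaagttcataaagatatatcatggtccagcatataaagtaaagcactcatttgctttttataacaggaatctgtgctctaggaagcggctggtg

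Receptor RNA varied several-fold between libraries of 1 group. The summed level of the 132 receptors was 302.5, 337.8, 267.4, 431.8, 529.7 and 529.3 CPM in C10 libraries 1 to 6. It was 172.3, 452.3, 242.0, 311.1, 455.3 and 378.4 CPM in CRS libraries 1 to 6. It was 430.6, 311.7, 245.6, 243.6, 139.0 and 368.1 CPM in CON libraries 1 to 6. The means were 399.7 ± 114 in C10, 335.2 ± 115 in CRS and 289.8 ± 103 CPM in CON (SD, n = 6 each), so the differences between means were of the size of 1 SD or less and the groups overlapped. CON 5 was lowest and C10 5 highest, a 3.81-fold range.

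As a share of all odorant receptor counts, the chromosome 9 receptors varied far less, from 13.09% to 15.78%, or 1.21-fold. The share was 14.2% ± 0.970 in C10, 15.0% ± 0.520 in CRS and 14.7% ± 0.512 in CON. Chromosome 2 receptors held 19.0% ± 0.461, 19.0% ± 0.512 and 18.6% ± 0.556 in the same groups. Single receptors also varied less as shares: the coefficient of variation over 18 libraries was lower as a share of receptor counts than as CPM for 73 of 85 receptors, with medians of 31.9% and 45.5%.

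Summed receptor RNA moved with the markers of mature neurons. Per 1000 CPM of the 10 mature neuron genes, the receptors had 54.2 to 66.9 CPM in C10 (mean 60.5 ± 4.75), 46.5 to 57.8 in CRS (51.1 ± 4.07) and 43.6 to 55.4 in CON (49.7 ± 4.10). In 4 of 6 C10 libraries the ratio was above every CRS and CON library, and the ranges overlapped: the lowest C10 value was below the highest CRS and CON values. No test was made of this ratio, which is a score over the members. The 1003 receptors outside chromosome 9 were also highest on average in C10. They summed to 2389 ± 541 CPM in C10, 1898 ± 662 in CRS and 1684 ± 593 in CON (SD, n = 6 each). The summed level of the 10 mature neuron genes averaged 6544, 6589 and 5773 CPM in the same order. The higher ratio in C10 is thus not shown to be particular to chromosome 9.

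**Figure D2:**
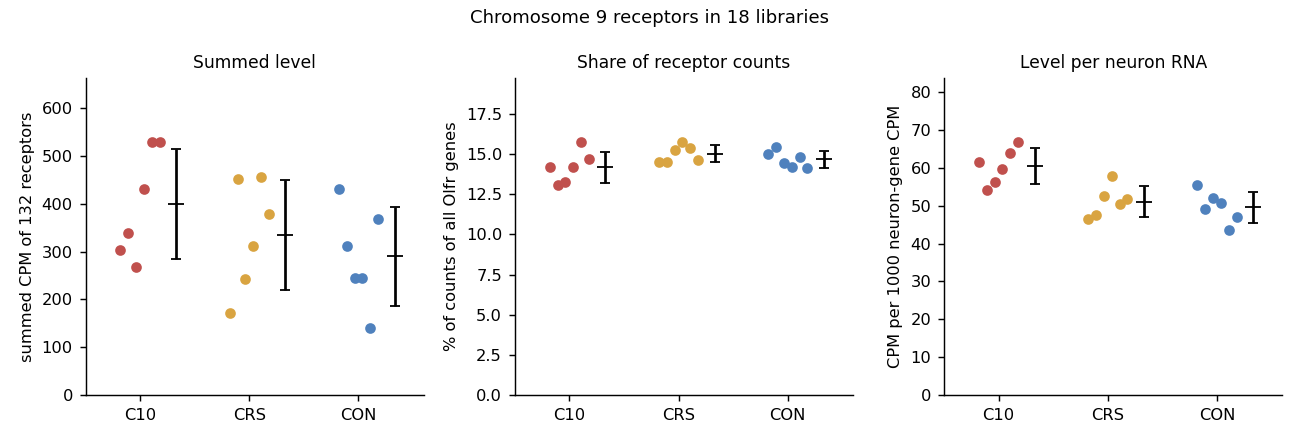
Each point is 1 library; black marks are the mean and SD of 6 libraries. Left, summed CPM of the 132 receptors; middle, their percentage of all protein-coding Olfr counts; right, their CPM per 1000 CPM of 10 mature neuron genes. The sums spread 3.81-fold and the shares 1.21-fold, and the ratio averages 60.5 in C10 against 51.1 in CRS and 49.7 in CON.

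**Figure D3:**
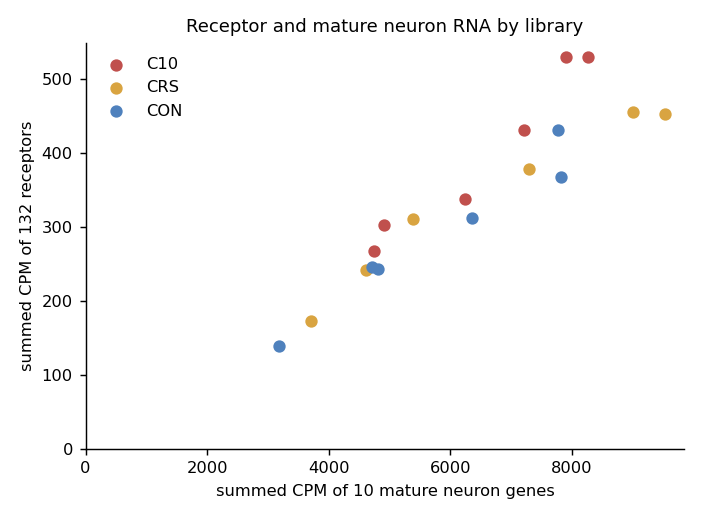
Summed CPM of the 132 receptors (y axis) against summed CPM of 10 mature neuron genes (x axis), 1 point per library, by group. CON 5 is lowest on both axes, at 3187 and 139.0 CPM, and C10 5 is highest on the y axis, at 529.7 CPM.

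For tests, 85 of the 132 receptors passed the filter on low counts, 16 of the proximal and 69 of the distal run; the 47 others held 2.15% of the member counts. Tests were edgeR quasi-likelihood F-tests on all genes, two-sided, with Benjamini-Hochberg adjustment over 18291 genes. No chromosome 9 receptor passed an adjusted p of 0.05 in any of the 3 comparisons, and for none of the 85 did the libraries of 2 groups lie apart without overlap. Of all genes, 0.355% were higher and 0.525% lower without overlap for C10 against CRS, 0.733% and 1.08% for C10 against CON, and 0.383% and 0.279% for CRS against CON.

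The comparison of C10 with CRS addresses what the compound changed in papain-treated mucosa. None of 85 receptors was called, where 0.082% of all genes tested were. Of the 85, 64 were above 0, with a median log2 fold change of 0.19, beside 0.30 over 547 other odorant receptors and 0.01 over all genes; when the library size was set to the total receptor count, a setting chosen after seeing the data, the median was -0.13. At an unadjusted p under 0.05 there were 8 receptors higher and 0 lower, against 5.77% and 7.41% of all genes. The lowest adjusted p among members was 0.205. All 10 members of MOR224 and all 5 of MOR223 were tested, and all were above 0, with medians of 0.57 and 0.56; with the receptor total as library size 6 and 3 of them were above 0, with medians of 0.24 and 0.25, and without CRS 1 6 of the 10 were. These counts have no test, and the families were picked after the values were seen.

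Olfr981 (ENSMUSG00000046678, MOR223, chr9:40021464-40030377) had the smallest p in this comparison. It had 8.41, 15.6 and 18.3 CPM (lowest, median and highest) in C10 and 3.80, 7.12 and 9.59 CPM in CRS. All 6 C10 libraries were above the CRS median, and the ranges overlapped between 8.41 and 9.59 CPM, where libraries of both groups lay. The difference, 2.02-fold or 1.02 ± 0.34 (SE) on the log2 scale, did not pass (edgeR adjusted p = 0.205).

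Olfr145 (ENSMUSG00000066748, MOR161, chr9:37896724-37903519) had 14.9, 18.5 and 36.2 CPM in C10, 5.09, 8.82 and 19.3 in CRS, and 4.78, 21.6 and 32.8 in CON. The C10 libraries were all above the CRS median, while the CRS libraries were all below the CON median. Its log2 fold change was 1.04 ± 0.39 for C10 against CRS and -0.90 ± 0.39 for CRS against CON (edgeR adjusted p = 0.257 and 0.316). Both comparisons use the same CRS libraries. Between C10 and CON it was 0.14 ± 0.38 (edgeR adjusted p = 0.906).

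Olfr149 (MOR224, chr9:39700518-39707117) had 0.422, 1.08 and 2.04 CPM in C10, 0.116, 0.449 and 0.644 in CRS, and 0.0556, 0.727 and 2.29 in CON. Log2 fold changes of Olfr149 were 1.56 ± 0.59 for C10 against CRS and -1.10 ± 0.60 for CRS against CON (edgeR adjusted p = 0.261 and 0.421); without CON 6 the second was -0.55. Olfr934 (MOR224) averaged 4.27 ± 1.45 CPM in C10 and 2.35 ± 0.945 in CRS (SD, n = 6 each; log2 fold change 0.86 ± 0.36, edgeR adjusted p = 0.315).

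The smallest p-values below 0 in C10 against CRS belonged to low receptors. Olfr910 (MOR165, chr9:38537849-38540820) had 0.0623, 0.339 and 0.845 CPM in C10 and 0.349, 0.975 and 1.15 in CRS, with all C10 libraries below the CRS median. Its log2 fold change was -1.12 ± 0.57 (edgeR adjusted p = 0.422), and its frame is 95.93% identical to that of Olfr912. Olfr869, Olfr18 and Olfr893 were at -0.69 ± 0.48, -0.63 ± 0.46 and -0.33 ± 0.31 (edgeR adjusted p = 0.568, 0.602 and 0.711). Without CRS 2 they were at -0.46, -0.25 and -0.12.

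With the mean level of the mature neuron genes as a covariate, a fit planned with the others, 6 receptors passed for C10 against CRS and all were higher in C10, against 2.18% of all genes called higher and 48 of 547 other receptors. They were Olfr981 (log2 fold change 0.98 ± 0.16, edgeR adjusted p = 0.00274), Olfr959 (0.56 ± 0.12, 0.0153), Olfr145 (1.04 ± 0.23, 0.0167), Olfr958 (0.67 ± 0.15, 0.0219), Olfr934 (0.84 ± 0.20, 0.0234) and Olfr148 (1.38 ± 0.36, 0.0383). All 6 belong to the distal run; Olfr959, Olfr958, Olfr934 and Olfr148 are of MOR224. DESeq2 called 0 members for this comparison, against 0.596% of all genes called higher. Each of the 6 passed in 1 of the fits made for it, the one with the covariate, and their adjusted p-values reached 0.407 to 0.603 in the others. The summed level of 8 immature olfactory neuron genes was 378.8 to 673.3 CPM in C10 and 232.9 to 588.9 in CRS, with overlap and with 0 of 8 called, and their part in these values was not tested.

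The comparison of C10 with CON sets papain plus compound against the control mucosa. None of 85 receptors was called, against 0.159% of all genes. Of the 85, 80 were above 0 and the median log2 fold change was 0.52, beside 0.51 over 547 other receptors and 0.01 over all genes; with library size set to the receptor total it was 0.005. At an unadjusted p under 0.05, 17 were higher and 0 lower, against 6.29% and 6.83% of all genes. The proximal run had a median of 0.61 over 16 tested genes and the distal run 0.46 over 69.

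Olfr948 (ENSMUSG00000057349, MOR171, chr9:39315712-39326045) had the lowest adjusted p of any member in the 3 comparisons. It had 0.561, 1.03 and 2.41 CPM in C10 and 0.0556, 0.366 and 0.62497 CPM in CON. All 6 C10 libraries were above the CON median, and only the lowest C10 value fell within the CON range. Olfr948 was 3.54-fold higher (log2 fold change 1.82 ± 0.46, edgeR adjusted p = 0.131), and CRS lay between, at 0.232 to 1.05 CPM.

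Olfr972 (MOR171, chr9:39866422-39874651) had 2.05, 2.84 and 3.33 CPM in C10 and 1.06, 1.35 and 2.29 in CON, a log2 fold change of 0.88 ± 0.25 (edgeR adjusted p = 0.156). Olfr959 (MOR224, chr9:39569383-39575569) had 10.5, 18.2 and 26.2 CPM in C10 and 4.34, 10.1 and 13.4 in CON, a log2 fold change of 0.88 ± 0.29 (edgeR adjusted p = 0.207). In both receptors all 6 C10 libraries were above the CON median and the ranges overlapped. Olfr916 (MOR168) averaged 4.45 ± 1.20 CPM in C10 and 2.65 ± 0.841 in CON (SD, n = 6 each). Its log2 fold change was 0.74 ± 0.24 (edgeR adjusted p = 0.209). The span of Olfr916 overlaps that of Gm49385. Whether their exons overlap, and on which strands, was not checked, so some reads may belong to either gene.

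Below 0 in C10 against CON no receptor had an unadjusted p under 0.05. Olfr910 was at -0.85 ± 0.58, Olfr868 at -0.46 ± 0.49, Olfr887 at -0.37 ± 0.42 and Olfr843 at -0.09 ± 0.47, with edgeR adjusted p of 0.547, 0.716, 0.742 and 0.957. Without CON 6, Olfr910 was at -0.26, Olfr868 at -0.26, Olfr887 at -0.22 and Olfr843 at 0.19. Single other libraries moved Olfr868 (CON 4, C10 2 and C10 5), Olfr887 (CON 1 and C10 6) and Olfr843 (each C10 and CON library) by over 1.5 times too. DESeq2 called Olfr948 (adjusted p = 0.0192) and Olfr972 (0.0433), against 0.64% of all genes called higher by that tool. With the neuron covariate edgeR called Olfr959 (adjusted p = 0.0121), Olfr970 (0.0404) and Olfr948 (0.0473), against 0.765% of all genes. Without CRS 2 and CRS 5, 0 were called, against 0.161% of all genes higher.

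The comparison of CRS with CON addresses the effect of papain. None of 85 receptors was called, against 0.00547% of all genes, which is 1 gene. Of the 85, 69 were above 0 with a median log2 fold change of 0.27, beside 0.19 over the other receptors and 0.004 over all genes; it was 0.13 with library size set to the receptor total and 0.08 without CRS 2 and CRS 5, the libraries with the highest summed levels in CRS. At an unadjusted p under 0.05, 5 were higher and 1 lower, against 7.75% and 6.3% of all genes. The covariate fit, DESeq2 and the fit without CRS 2 and CRS 5 each called 0 members, against 0.0109%, 0.64% and 0.00535% of all genes called higher.

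Olfr972 had the smallest p above 0, with 1.57, 2.43 and 4.21 CPM in CRS against 1.06, 1.35 and 2.29 in CON (log2 fold change 0.81 ± 0.25, edgeR adjusted p = 0.226). All 6 CRS libraries were above the CON median. Its values for C10 and CRS differed by 0.07 ± 0.24, less than the spread between libraries. Olfr869 (MOR145) had 0.585, 0.717 and 1.48 CPM in CRS and 0, 0.275 and 0.819 CPM in CON (1.32 ± 0.50, edgeR adjusted p = 0.267); its frame is 95.37% identical to that of Olfr872. Olfr18 (1.21 ± 0.48) and Olfr44 (0.68 ± 0.31) did not pass either (edgeR adjusted p = 0.281 and 0.333). The span of Olfr18 overlaps that of Gm45815. Whether their exons overlap, and on which strands, was not checked, so some reads may belong to either gene.

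Below 0 in CRS against CON, the smallest p-values were those of Olfr145 and Olfr149, given above, and of Olfr846 and Olfr148. Olfr846 (MOR149) averaged 0.728 ± 0.431 CPM in CRS and 1.39 ± 0.713 in CON (SD, n = 6 each; -0.92 ± 0.55, edgeR adjusted p = 0.462). Olfr148 was at -0.43 ± 0.60 (edgeR adjusted p = 0.775) and at 0.29 without CON 1, its highest control library, -0.23 without CRS 1 or CRS 4 and -0.83 without CRS 5.

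**Figure D4:**
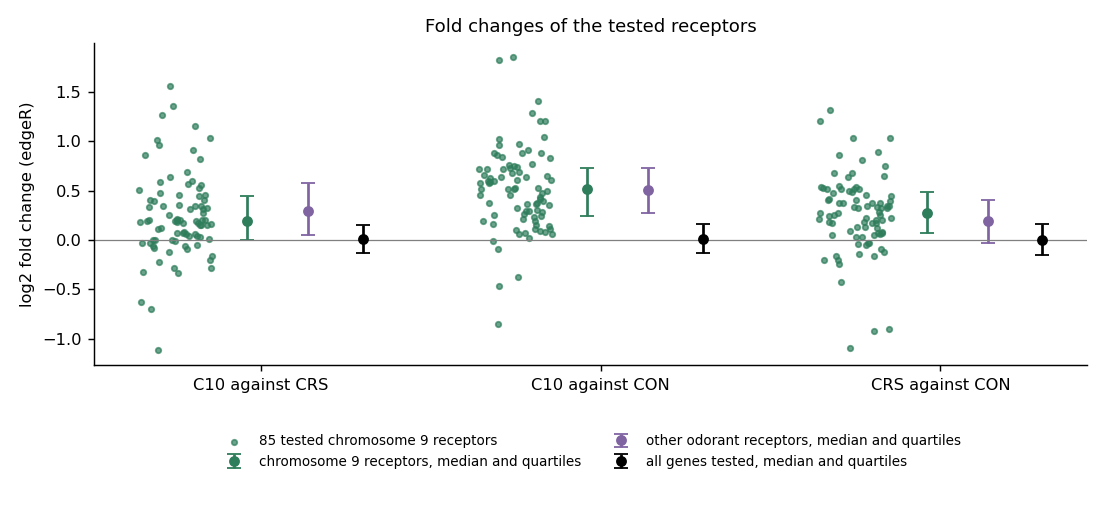
Log2 fold changes (edgeR, y axis) of the 85 tested chromosome 9 receptors in 3 comparisons. Small green points are single receptors; larger points with bars are medians with quartiles of these receptors, of 547 other odorant receptors and of all 18291 genes tested. Medians of the chromosome 9 receptors are 0.19, 0.52 and 0.27 from left to right, beside 0.30, 0.51 and 0.19 for the other receptors.

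**Figure D5:**
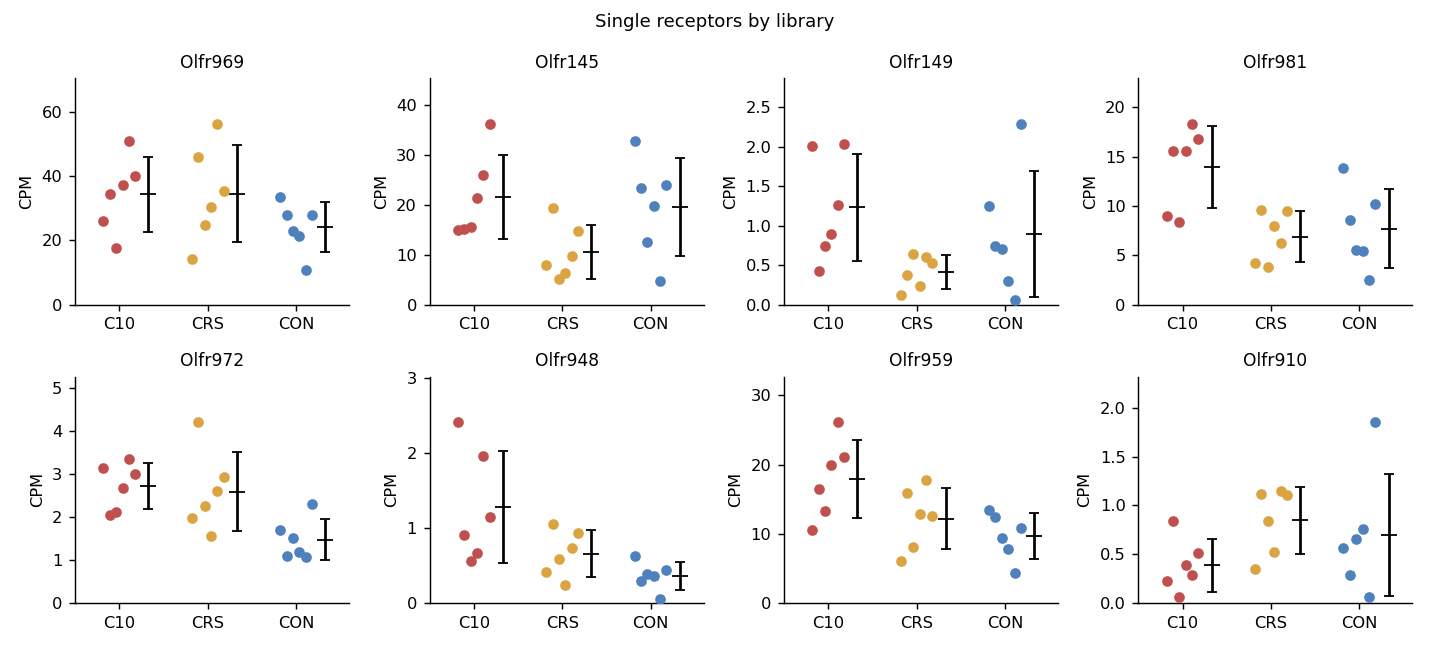
CPM of 8 receptors in each library, with the mean and SD of 6 libraries in black. Olfr969 overlaps in all groups; Olfr145 and Olfr149 are lowest on average in CRS; Olfr981, Olfr959 and Olfr948 are highest on average in C10; Olfr910 is lowest on average in C10.

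Genes that act with the receptors were not called either. Of 18 olfactory signalling genes, 17 were tested and 0 were called in each comparison, with median log2 fold changes of 0.03 for C10 against CRS, 0.17 for C10 against CON and 0.14 for CRS against CON. The smallest p for C10 against CRS belonged to Slc12a2, a chloride importer (-0.21 ± 0.11, edgeR adjusted p = 0.456), Gng13, a G protein gamma subunit (-0.56 ± 0.34, 0.509), and Pde1c, a phosphodiesterase (0.23 ± 0.21, 0.705). For C10 against CON they were Camk2b, a calmodulin-dependent kinase (0.50 ± 0.26, edgeR adjusted p = 0.412), Pde1c (0.31 ± 0.21, 0.549) and Stoml3, a protein of sensory cilia (0.32 ± 0.26, 0.613). For CRS against CON they were Camk2b (0.67 ± 0.26, edgeR adjusted p = 0.271), Gng13 (0.86 ± 0.34, 0.282) and the channel subunit Cnga2 (0.30 ± 0.26, 0.627). Of 5 receptor transport genes, which bring receptors to the cell surface, 0 were called.

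Of 24 genes tied to receptor choice, all tested, 0 were called in each comparison. For C10 against CRS the smallest p belonged to Nfia, a nuclear factor (-0.34 ± 0.10, edgeR adjusted p = 0.175), and Ddit3, a factor of the unfolded protein response (-0.43 ± 0.15, 0.223). For C10 against CON they were Kdm1a, the demethylase that acts at the onset of receptor choice (0.21 ± 0.07, edgeR adjusted p = 0.193), Ebf2 (0.58 ± 0.26, 0.343) and Eif2ak3, the kinase PERK of the unfolded protein response (-0.18 ± 0.08, 0.344). For CRS against CON they were Ddit3 (0.55 ± 0.15, edgeR adjusted p = 0.206), Nfia (0.25 ± 0.10, 0.295) and Nfix (-0.30 ± 0.17, 0.421).

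Among cell type lists, 1 gene was called. Neurod1, a transcription factor of olfactory neuron precursors, rose in C10 against CON, with 6.47 ± 2.40 CPM in C10 and 1.86 ± 0.504 in CON (SD, n = 6 each; log2 fold change 1.80 ± 0.30, edgeR adjusted p = 0.018). All 8 immature neuron genes were above 0 in C10 against CON, with a median of 0.82, and the median of the 10 mature neuron genes was 0.23. The summed level of 4 fibroblast markers averaged 2619 ± 950 CPM in C10 and 3379 ± 1620 in CRS, below 5272 ± 2740 in CON (SD, n = 6 each). Most of this sum was Col1a1 and Col1a2, at 2766 and 1973 CPM in CON. Of the 4 markers, 0 were called in each comparison. Their part in the receptor values was not tested.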

How the data were processed

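The deposited table of raw read counts per gene and the deposited FPKM table, both made by the authors from the same 18 libraries, were used. The submitters' processing notes give the build mm10; no aligner, counter or annotation is given in the sources used here, and strand-keeping is not stated for the kit. Each column total times 0.877 to 1.08 is the library size that the authors' FPKM values imply. Each column was matched to a library by its label.

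Counts were analysed in R 4.3.3 with edgeR 4.0.16: filterByExpr by group, TMM factors, quasi-likelihood F-tests with 1 mean per group on all 18 libraries, two-sided, Benjamini-Hochberg adjusted over 18291 genes. An SE is the log2 fold change over the square root of F. FPKM was used for levels between genes, CPM within a gene. A common biological coefficient of variation of 0.264 describes the spread over all genes tested, not that of the receptors alone. The scripts were tested on simulated data.

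The members, gene lists and tests were chosen with earlier results of these data known. Receptors were named as the 12 highest by mean FPKM, the 4 of smallest p in each direction per comparison and any called; list genes as those called and the 3 of smallest p in the signalling and choice lists; 1 gene so chosen is not reported here. Alternatives were RLE size factors, no filter, a minimum of 1 CPM in 6 libraries, a block by replicate number, the 2 groups alone, a mature neuron covariate, DESeq2 1.42.0, limma 3.58.1 on log2 of FPKM plus 1 or 0.1, each library left out, CRS 2 and CRS 5 left out together, and, chosen after seeing the data, the receptor total as library size. Floors cover counting error only. Every one of 153 library pairs differed beyond counting noise (chi-square over degrees of freedom at least 14.1). Gene models and reading frames came from GENCODE release M21, families and promoters from RefSeq; motifs were searched on both strands.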

Additional observations from a re-analysis of the deposited data

Results flagged for a closer look

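Among 99 sets of 6 values (28 named receptors and 5 sums in 3 groups), 4 had a library far from the others by Dixon's criterion, and chance flags about 1 in 20 sets. Olfr924 had 14.6 CPM in CON 1, with the next control library at 7.99. Olfr148 had 1.82 CPM in CON 1, with the next at 0.710. Olfr869 had 1.48 CPM in CRS 2, with the next CRS library at 0.754. Olfr44 had 1.30 CPM in CRS 2, with the next at 0.936. CRS 2 and CON 1 are the libraries with the second highest summed receptor level in CRS and the highest in CON, at 452.3 and 430.6 CPM; the part of that level in these values was not tested.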

How the results depend on the processing

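Of 29 alternative fits, 3 changed how many chromosome 9 receptors were called: the mature neuron covariate called 6 for C10 against CRS and 3 for C10 against CON, DESeq2 called 2 for C10 against CON, and leaving out CRS 2 and CRS 5 together called 1 for C10 against CRS, Olfr888 (log2 fold change 3.60, edgeR adjusted p = 0.0404; range over its fits 0.0404 to 0.61), named after its values were seen; for this last fit 0.198% of all genes were called higher. CRS 2 and CRS 5 have the highest summed receptor levels in CRS and the highest Olfr888 counts there, 26 and 19. Leaving both out thus lowers the CRS values by construction, and the call of Olfr888 cannot be read apart from that. With each single library left out, 0 receptors were called in every comparison. The median log2 fold change then ran from 0.08 (without CRS 1) to 0.275 (without CRS 2) for C10 against CRS, below its value with all libraries by more than 1.5 times also without CRS 3, C10 5 or C10 6 (0.111, 0.106 and 0.095); from 0.375 to 0.653 for C10 against CON; and from 0.154 (without CON 5) to 0.42 (without CON 1) for CRS against CON, with 0.169 without CRS 5 and 0.177 without CRS 2. It was 0.414 for C10 against CRS without CRS 2 and CRS 5 together. For C10 against CON it moved to 0.005 with the receptor total as library size and to 0.17 with limma on log2(FPKM + 1), where the pseudocount shrinks low receptors by construction. For single receptors, 666 values kept their direction and side of the threshold, 7 passed it and 6 turned: Olfr148 for CRS against CON ran from -0.833 to 0.287 and Olfr843 for C10 against CON from -0.455 to 0.186 with single libraries left out; the cause was not tested. With the replicate number as a block 0 receptors were called in each comparison. The medians were then 0.206, 0.457 and 0.236 for C10 against CRS, C10 against CON and CRS against CON. Deviations of same-numbered libraries from their group means correlated from -0.574 to 0.519. Libraries of different numbers were not compared, so these values cannot decide whether the numbers pair the samples. At the depth used, 47 receptors were too low to test.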

Other observations

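Chromosome 9 also holds 41 Olfr rows that are not annotated as protein-coding, 30 unprocessed and 11 polymorphic pseudogenes. Together they had 367 counts, 0.349% of all Olfr counts on the chromosome, and 27 of them had 0 counts in every library. The highest was Olfr947-ps1 with 100 counts, more than 42 of the 132 protein-coding members. Olfr151, known as M71, is a polymorphic pseudogene in this annotation and had 18 counts, against 2021 for Olfr160. Its longest reading frame was the closest to that of Olfr160 among the genes compared, at 80.54% identity. A frame broken in a pseudogene would lower this value, so it need not give the identity of the full sequences. How reads that match both genes were counted is not given, so these counts are uncertain where the sequences are identical.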
